A study of Rattus norvegicus with 10 samples.

Results

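The capillaries of the brain are lined by endothelial cells that form the blood-brain barrier. Tight junction proteins seal the clefts between these cells, efflux pumps return drugs and metabolites to the blood, and uptake carriers bring in glucose, lipids and other nutrients. Because the junctions close the route between the cells, most of what reaches the brain passes through the endothelial cell and its transporters. Traumatic brain injury is known to open the barrier early on, and the question addressed here was how the mRNA of its components stood in the chronic phase.

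The members were 10 genes chosen by symbol, out of 16610 symbols found in the count table. Cldn5, Ocln, Tjp1 and Pecam1 stood for the junctions, Abcb1a and Abcg2 for efflux, Slc2a1, Slco1a4 and Mfsd2a for uptake, and Flt1 for vascular growth factor receptors. Each of the 10 symbols had 1 RefSeq RNA record in the table, and all 10 records passed the filter on low counts.

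The data were mRNA counts from the CA3 and dentate gyrus of the left hippocampus of adult male Sprague-Dawley rats, labelled dorsal hippocampus and collected 3 months after surgery. Sham rats (n = 5) had anaesthesia and a craniectomy over the left parietal lobe but no impact. TBI rats (n = 5) had the same procedures followed by lateral fluid percussion, a pressure pulse onto the intact dura, with a mean impact of 3.32 atm. Each library came from a separate rat, and the 2 groups differed in no other labelled treatment. The study's methods name 3 control and 5 TBI rats for mRNA profiling, whereas the deposited counts cover 5 of each, all used here.

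The libraries held between 23425817 and 31671838 counts on RNA records. Ribosomal RNA records took 59.0% of the counts in sham rat 4 and 58.5% in sham rat 5, against 12.5% to 26.2% in the other 8 libraries, so counts outside ribosomal RNA ranged from 12686398 to 24735107. The neuronal marker Rbfox3 was at a mean of 165 CPM in sham and 174 CPM in TBI rats. Prox1 and C1ql2, markers of dentate granule cells, were found in every library but varied several-fold between rats of a group. Prox1 was 9.55 CPM in sham rat 1 against 25.7 to 41.4 CPM in the other sham rats, and 11.4 CPM in TBI rat 5 against 19.4 to 28.9 CPM in the other TBI rats. C1ql2 was 33.4 CPM in sham rat 1 and 47.6 CPM in TBI rat 5, the lowest of each group. Of 9 further endothelial markers 5 had a record that could be tested, and their summed level was 8.25 to 11.02 CPM in sham and 8.36 to 12.0 CPM in TBI rats. In whole tissue, fewer cells of a type and less RNA per cell cannot be told apart.

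No member differed between the groups after adjustment for multiple testing. With the quasi-likelihood test of edgeR and Benjamini-Hochberg adjustment over 22431 records, 0 of the 10 members passed an adjusted p of 0.05, against 0.00% of all records. At an unadjusted p of 0.05, 1 of 10 members passed (Slc2a1, higher in TBI), beside 7.89% of all records, of which 4.89% were higher and 3.00% lower in TBI. DESeq2, run on the same records, called 3 records at an adjusted p of 0.05 and 0 of them were members. The mean was higher in TBI for 5 members and lower for 5, with a median log2 change of -0.01, and the median over all records was also -0.01. The ranges of the groups were separate for 0 of the 10 members, beside 0.923% of all records. The share of members called was close to that of all records, so the counts alone did not set the members apart.

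Levels below are given in CPM, counts scaled to a fixed library size after TMM normalization, and changes as log2 of TBI over sham with their standard errors (SE). Transcript lengths were not used, so levels are not compared between genes.

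**Figure D1:**
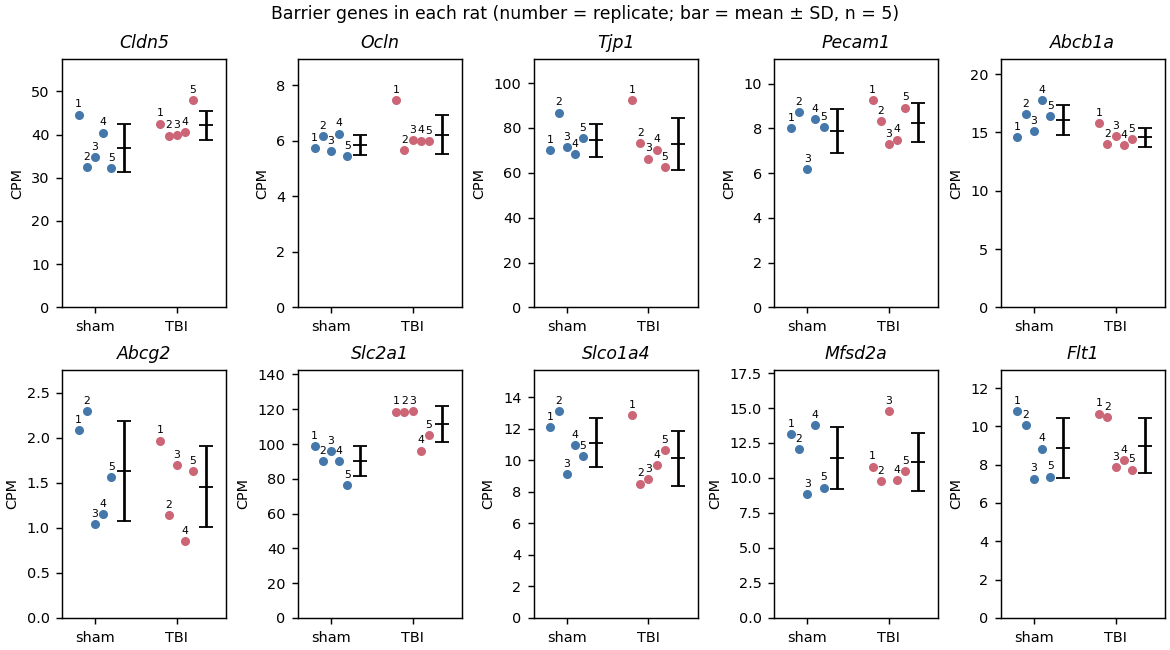
Level of each of the 10 barrier genes in CPM (vertical axes, starting at 0) in sham and TBI rats. Points are rats labelled by replicate number and bars show the mean ± SD (n = 5); Slc2a1 is higher in 4 TBI rats than in any sham rat, and in all 10 panels the ranges of the groups overlap.

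Among the uptake carriers, Slc2a1 encodes GLUT1, the glucose transporter of the brain endothelium, which astrocytes also express. In the sham rats it was measured at 99.0, 90.2, 96.1, 90.3 and 76.5 CPM. In the TBI rats the values were 119, 119, 119, 96.2 and 105 CPM. All TBI rats but replicate 4 lay above every sham rat, and replicate 4 lay inside the sham range. The mean was 90.4 ± 8.64 CPM in sham and 111 ± 10.4 CPM in TBI (SD, n = 5 each), a fold of 1.23. The log2 change was 0.30 (SE 0.0861, 95% interval 0.12 to 0.48), with an unadjusted p of 0.0025 and an adjusted p of 0.483 from the quasi-likelihood test of edgeR.

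The difference in Slc2a1 kept its direction when each rat was left out in turn, with log2 changes from 0.24 to 0.35 and an unadjusted p under 0.05 in 10 of 10 fits. The sham rats rich in ribosomal RNA included the lowest Slc2a1 value, replicate 5. Without sham rats 4 and 5 the log2 change was 0.23 with an unadjusted edgeR p of 0.0275. With the share of ribosomal RNA as a covariate it was 0.21 with an unadjusted edgeR p of 0.0700. The share of ribosomal RNA itself was 38.7% ± 18.3 in sham and 19.7% ± 5.23 in TBI (SD, n = 5 each; exact permutation p = 0.0238), and its part in the result was not tested further.

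Slc2a1 was also set against the other members within each library, a ratio that no scaling between libraries can alter. Its level over the geometric mean of the other 9 members was 7.91, 7.05, 9.85, 7.74 and 7.12 in sham rats. In TBI rats the ratio was 8.96, 11.03, 10.5, 9.43 and 9.21. Sham rat 3 lay inside the TBI range and the other sham rats lay below it. This ratio was chosen after the values were seen and is given without a test.

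Slco1a4 encodes an organic anion transporter of brain capillaries that carries bile acids, steroid conjugates and drugs. Its level was 12.1, 13.1, 9.13, 10.9 and 10.2 CPM in sham rats. In TBI rats it was 12.9, 8.51, 8.80, 9.71 and 10.6 CPM. TBI rats 2 and 3 lay below every sham rat while TBI rat 1 was among the highest, and the log2 change was -0.14 (SE 0.124, unadjusted edgeR p of 0.277).

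Mfsd2a encodes the endothelial carrier of lysophospholipids bearing docosahexaenoic acid, and is also known for holding down vesicle transport across the endothelium. It was measured at 13.1, 12.0, 8.87, 13.8 and 9.31 CPM in sham rats. The TBI rats gave 10.8, 9.79, 14.8, 9.87 and 10.5 CPM. TBI rat 3 was the highest of all rats, the other TBI rats lay between the low and high sham rats, and the log2 change was -0.03 (SE 0.139, unadjusted edgeR p of 0.812).

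Of the junction genes, Cldn5 showed the largest change in mean. It encodes claudin-5, the main claudin of brain endothelial tight junctions and the protein that closes them to small molecules. The sham rats had 44.6, 32.4, 34.8, 40.4 and 32.2 CPM. The TBI rats had 42.5, 39.8, 39.9, 40.5 and 47.9 CPM. The TBI rats clustered near 40 CPM or above, and sham rats 1 and 4 lay among them. The mean was 36.9 ± 5.45 CPM in sham and 42.1 ± 3.42 CPM in TBI (SD, n = 5 each). The log2 change was 0.19 (SE 0.0949, 95% interval -0.01 to 0.39), with an unadjusted p of 0.0598 and an adjusted p of 0.646 from edgeR. Single rats decided on which side of the unadjusted threshold it fell: without sham rat 1 the log2 change was 0.27 (edgeR p of 0.0066), and without sham rat 4 it was 0.22 (edgeR p of 0.0482). Sham rat 1 was also the lowest in the granule cell markers Prox1 and C1ql2, whose part in this result was not tested.

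Ocln encodes occludin, a membrane protein of the tight junction that epithelial cells also carry. Its level was 5.74, 6.18, 5.62, 6.25 and 5.43 CPM in sham rats. It was 7.45, 5.67, 6.01, 6.01 and 5.98 CPM in TBI rats. Apart from TBI rat 1, every TBI rat lay inside the sham range, and the log2 change was 0.09 (SE 0.106, unadjusted edgeR p of 0.401).

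Tjp1 encodes ZO-1, the scaffold that ties claudins and occludin to actin and that many cell types besides endothelium express. In sham rats it was 70.3, 86.9, 71.6, 68.2 and 75.5 CPM. In TBI rats it was 92.2, 73.1, 66.3, 70.3 and 62.6 CPM. TBI rats held both the highest value (replicate 1) and the lowest (replicate 5), and the log2 change was -0.03 (SE 0.0995, unadjusted edgeR p of 0.753).

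Pecam1 encodes the adhesion molecule CD31 of endothelial cell contacts, which platelets and leukocytes carry too. The sham rats had 8.02, 8.73, 6.17, 8.43 and 8.06 CPM. The TBI rats had 9.25, 8.33, 7.30, 7.49 and 8.93 CPM. Sham rat 3 was the lowest of all rats, the groups otherwise overlapped, and the log2 change was 0.07 (SE 0.112, unadjusted edgeR p of 0.514). Without sham rat 3 the log2 change was -0.01.

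The efflux pumps both had lower means in TBI after TMM scaling, and higher ones with total counts as library size (log2 changes of 0.38 for Abcb1a and 0.29 for Abcg2, beside a median of 0.50 over all records). Abcb1a encodes a P-glycoprotein, the drug pump on the blood side of the brain endothelium. It was measured at 14.6, 16.6, 15.1, 17.7 and 16.4 CPM in sham rats. The values in TBI rats were 15.8, 14.0, 14.7, 13.9 and 14.4 CPM. TBI rats 2, 4 and 5 lay below every sham rat, and TBI rats 1 and 3 lay inside the sham range. The mean was 16.1 ± 1.25 CPM in sham and 14.6 ± 0.775 CPM in TBI (SD, n = 5 each), with a log2 change of -0.14 (SE 0.0845, 95% interval -0.31 to 0.04, unadjusted edgeR p of 0.121). Abcb1a and its close paralogue Abcb1b have similar sequences, so with short reads the division of counts between them is uncertain.

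Abcg2 encodes the breast cancer resistance protein, an efflux pump that shares many substrates with P-glycoprotein. It was the least counted member, with 17 to 68 counts per library. Its level was 2.09, 2.30, 1.04, 1.16 and 1.56 CPM in sham rats and 1.97, 1.14, 1.70, 0.854 and 1.63 CPM in TBI rats. The rats of each group were widely spread, with a coefficient of variation of 34.2% in sham and 30.9% in TBI. The log2 change was -0.18 (SE 0.250, 95% interval -0.71 to 0.34, unadjusted edgeR p of 0.477).

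Flt1 encodes VEGF receptor 1, which binds vascular endothelial growth factor and, as a soluble form, holds it back from its main signalling receptor. The sham rats had 10.8, 10.1, 7.28, 8.84 and 7.37 CPM. The TBI rats had 10.7, 10.5, 7.86, 8.22 and 7.74 CPM. Both groups covered nearly the same range, and the log2 change was 0.01 (SE 0.131, 95% interval -0.26 to 0.29, unadjusted edgeR p of 0.920).

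**Figure D2:**
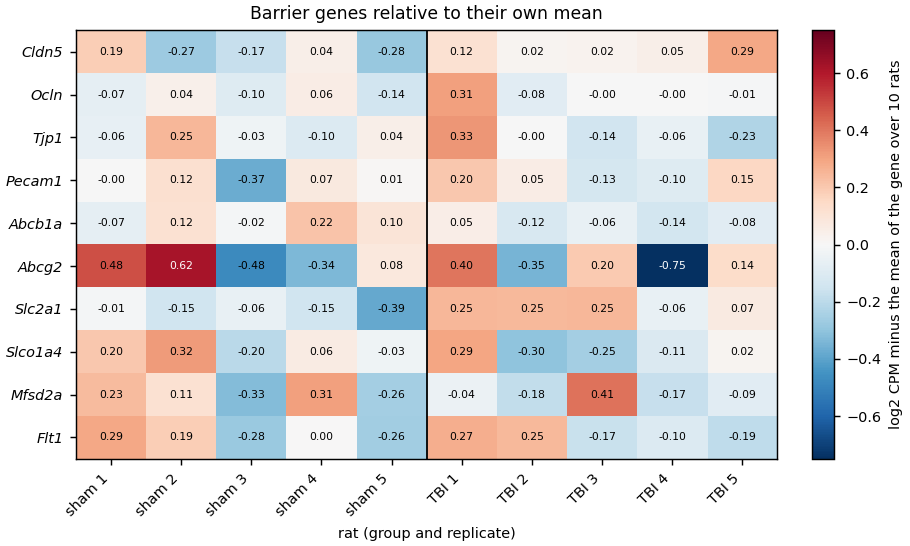
Level of each barrier gene (rows) in each rat (columns), as log2 CPM minus the mean of that gene over the 10 rats, with red above and blue below the mean and the value printed in each cell. Sham rat 3 lies below the gene's mean in every row and TBI rat 1 above it in all rows but Mfsd2a, while the row of Slc2a1 is mostly blue in sham and red in TBI.

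The rats differed among themselves within a group as well. TBI rat 1 was above the median of the 10 rats for all 10 members and was the highest rat for 3 of them. Sham rat 3 was above the median for 2 members and the lowest rat for 3. TBI rat 4 was above it for 2 members, and sham rat 2 for 8. The direction of these rats did not follow the groups, since a rat with mostly low and a rat with mostly high members occurred in each.

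Over the 10 rats, the 45 pairs of members had a median Pearson r of 0.32, and 39 of the 45 coefficients were positive. The pair with the highest r was Abcg2 and Slco1a4 (r = 0.69, permutation p = 0.0313, Spearman rho = 0.70), and r was 0.69 again without the 2 rats farthest from the median of Abcg2. Pecam1 and Slco1a4 had r = 0.62 over all rats, 0.82 within sham and 0.73 within TBI. The lowest was Abcb1a and Slc2a1 (r = -0.53), for which r was -0.09 once each group was centred on its own mean. After Benjamini-Hochberg adjustment over the 45 pairs, 0 pairs passed 0.05 by the permutation test and the smallest adjusted value was 0.451. The same libraries and scaling factors enter every pair.

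The mean pattern of Cldn5, Pecam1, Abcb1a, Slco1a4 and Flt1 over the 10 rats was compared with 10707 records of other genes with a mean of at least 1 CPM. The 5 most alike by Pearson r were Klhl13 (0.92), Itga5 (0.92), Arl5b (0.92), Slc38a5 (0.90) and Shld2 (0.88). Slc38a5, an amino acid transporter, also belonged to the list of uptake carriers, where its log2 change was -0.22 (unadjusted edgeR p of 0.342). These genes were picked for their likeness, so the coefficients are a description. The 5 members behind the mean pattern were not all alike, with r from -0.45 (Cldn5 and Abcb1a) to 0.62 (Pecam1 and Slco1a4).

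**Figure D3:**
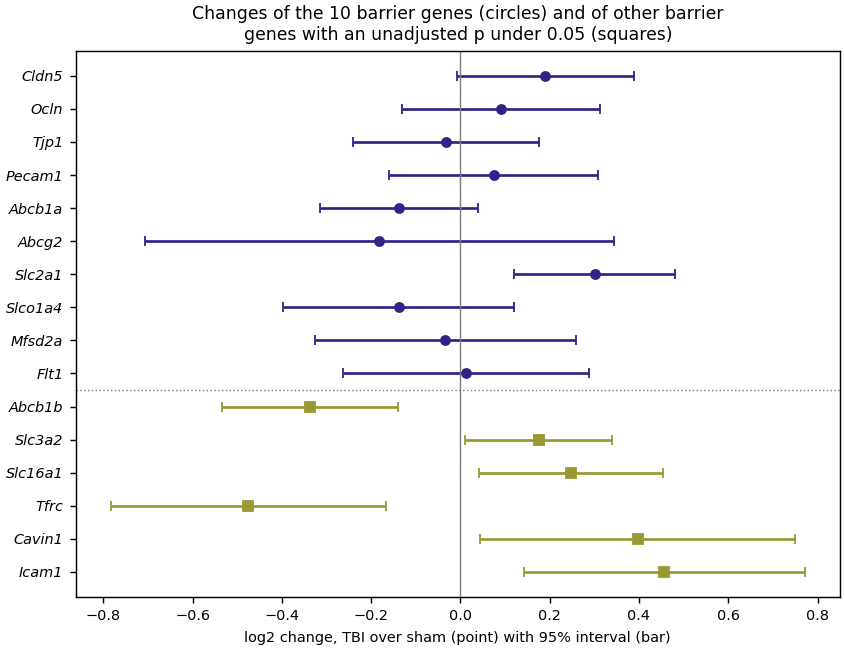
Log2 change of TBI over sham (horizontal axis) with its 95% interval for the 10 barrier genes (circles) and the 6 further barrier genes with an unadjusted p under 0.05 (squares). Among the circles the interval of Slc2a1 alone lies apart from 0, from 0.12 to 0.48, and that of Abcg2 is the widest, from -0.71 to 0.34.

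The promoters of Slc2a1 and Cldn5, the members with the highest log2 changes, are shown to give the sequence context of these genes. They are the 250 bases before the RefSeq start of each gene in the GRCr8 assembly, read 5′ to 3′ along the gene, with matches to the searched motifs in capitals. Slc2a1 lies on the plus strand (chr5:138002272-138002521) and Cldn5 on the minus strand (chr11:95718599-95718848).
Slc2a1: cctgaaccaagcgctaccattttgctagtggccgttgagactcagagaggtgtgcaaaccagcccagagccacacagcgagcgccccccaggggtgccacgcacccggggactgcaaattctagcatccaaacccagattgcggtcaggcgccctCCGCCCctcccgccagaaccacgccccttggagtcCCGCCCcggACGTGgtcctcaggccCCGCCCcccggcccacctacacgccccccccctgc
Cldn5: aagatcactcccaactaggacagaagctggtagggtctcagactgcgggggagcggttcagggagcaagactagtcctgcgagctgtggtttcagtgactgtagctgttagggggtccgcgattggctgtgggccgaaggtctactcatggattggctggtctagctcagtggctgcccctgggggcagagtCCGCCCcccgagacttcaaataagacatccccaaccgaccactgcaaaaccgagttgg
The motifs were the TATA box (TATAAA), the GC box (GGGCGG), the core of ETS sites (GGAAG) and the core of hypoxia response elements (ACGTG), searched on both strands. Slc2a1 held 3 GC boxes and 1 hypoxia response core, which began 51 bases before the start, and 68.4% of its bases were G or C. Cldn5 held 1 GC box, which began 58 bases before the start, and 58.4% of its bases were G or C.

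Promoters were found for 8 of the 10 members, all but Pecam1 and Mfsd2a. For 5 of the 8 (Ocln, Tjp1, Abcb1a, Abcg2 and Flt1) the listed start lay inside the span of the gene, so an upstream start exists that was not searched, whereas those of Slc2a1, Cldn5 and Slco1a4 lay at its edge. The GC box stood in 5 of these 8 (Slc2a1, Cldn5, Abcb1a, Abcg2 and Flt1) and in 30.5% of 33469 promoters of the same length. The hypoxia response core stood in 2 of 8 (Slc2a1 and Slco1a4) and in 16.6% of all. The ETS core stood in 4 of 8 (Ocln, Abcg2, Slco1a4 and Flt1) and in 63.3% of all, and the TATA box in 1 of 8 (Flt1) and in 12.9% of all. A match is a run of letters and was not tested for binding.

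The members were then set beside 84 further genes of the barrier, listed by role. Of these, 74 had a record that could be tested, 39 with a higher and 35 with a lower mean in TBI, and the median log2 change was 0.01. An unadjusted p under 0.05 was found for 6 of the 74 (8.11%), 4 higher and 2 lower, close to the 7.89% of all records. An adjusted p of 0.05 was passed by 0 of the 74. The groups did not overlap for 1 of the 74, Abcb1b, beside 0.923% of all records. The share of 7.89% also stands beside the count of each list below.

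**Figure D4:**
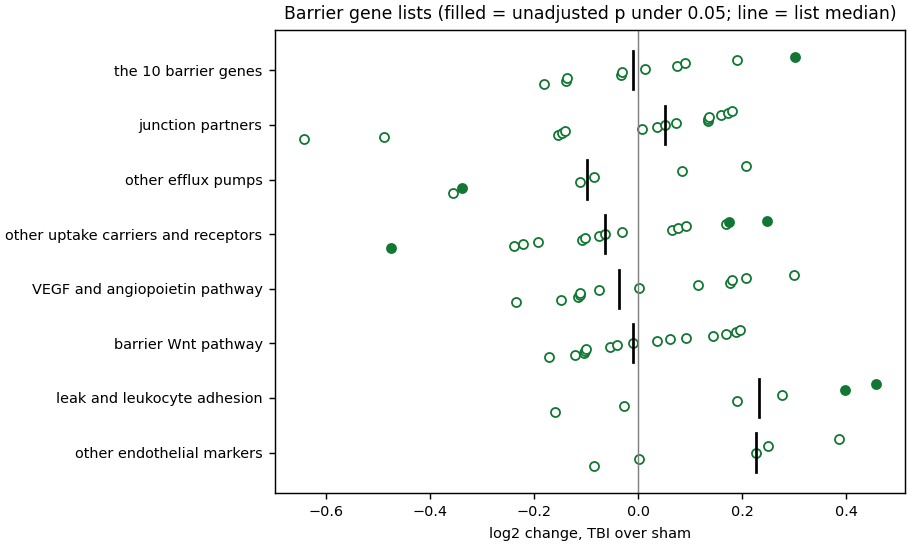
Log2 change of TBI over sham (horizontal axis) for every tested gene of the 10 barrier genes and the 7 further lists, with filled points for an unadjusted p under 0.05 and a vertical line at each list's median. The medians lie between -0.10 (other efflux pumps) and 0.23 (leak and leukocyte adhesion), and most points are open.

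Junction partners of the members gave no unadjusted p under 0.05 in 15 genes tested. The smallest were Ctnna1, the alpha-catenin of adherens junctions (log2 change 0.18, unadjusted edgeR p of 0.0584), and Tjp3, a relative of ZO-1 (0.17, unadjusted edgeR p of 0.125). Cdh5, the cadherin of endothelial adherens junctions, had a log2 change of 0.14 (SE 0.153).

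Among 6 other efflux pumps, Abcb1b, the paralogue of Abcb1a, was lower in TBI. It was measured at 9.33, 10.4, 9.68, 9.52 and 10.5 CPM in sham rats. In TBI rats it was 8.70, 7.21, 8.42, 7.40 and 7.35 CPM. Every TBI rat lay below every sham rat, and the log2 change was -0.34 (SE 0.0938), with an unadjusted p of 0.0020 and an adjusted p of 0.478 from edgeR. With total counts outside ribosomal RNA as library size it was -0.19 (unadjusted edgeR p of 0.191), and with total counts 0.16. The ratio of Abcb1b to Abcb1a within each library was 0.617 ± 0.0455 in sham and 0.536 ± 0.0258 in TBI (SD, n = 5 each), with sham rat 4 at 0.536 inside the TBI range of 0.511 to 0.573. The shared sequence of the paralogues makes the division between them uncertain.

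Of 15 other uptake genes, 3 had an unadjusted p under 0.05. Slc16a1, the carrier MCT1 for lactate and ketone bodies, had a log2 change of 0.25 (SE 0.0986, unadjusted edgeR p of 0.0213), with 4 TBI rats above every sham rat. Slc3a2, the heavy chain partner of amino acid carriers, had a log2 change of 0.18 (SE 0.0783, unadjusted edgeR p of 0.0377) in its most counted record. Its other record had a log2 change of 0.19 (unadjusted edgeR p of 0.0528). Slc16a1 missed that threshold without TBI rat 1, sham rat 4 or sham rat 5 (log2 changes from 0.18 to 0.31 over the 10 fits), and Slc3a2 without TBI rats 1, 2 or 5 or sham rats 2, 4 or 5 (0.14 to 0.21). Slc7a5, a light chain that pairs with Slc3a2 to carry large neutral amino acids, had a log2 change of 0.08 (unadjusted edgeR p of 0.503).

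Tfrc, the transferrin receptor through which the endothelium takes up iron, was lower in TBI. The libraries were made from whole tissue, so which cells held this mRNA was not measured. Sham rats had 29.3, 32.9, 23.5, 29.0 and 32.4 CPM. TBI rats had 19.3, 16.3, 30.3, 20.6 and 19.1 CPM. All TBI rats but replicate 3 lay below every sham rat, and the log2 change was -0.48 (SE 0.144, unadjusted edgeR p of 0.0051, adjusted p of 0.485). Without TBI rat 3 the log2 change was -0.64 (unadjusted edgeR p of 9.0e-06, adjusted p of 0.0384), the only one of the 10 fits in which Tfrc passed the adjusted threshold. The study also lists Tfrc as downregulated after TBI, with an adjusted edgeR p under that threshold. Its methods name fewer control rats for mRNA profiling than were used here, and the cause of the different outcome was not tested.

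**Figure D5:**
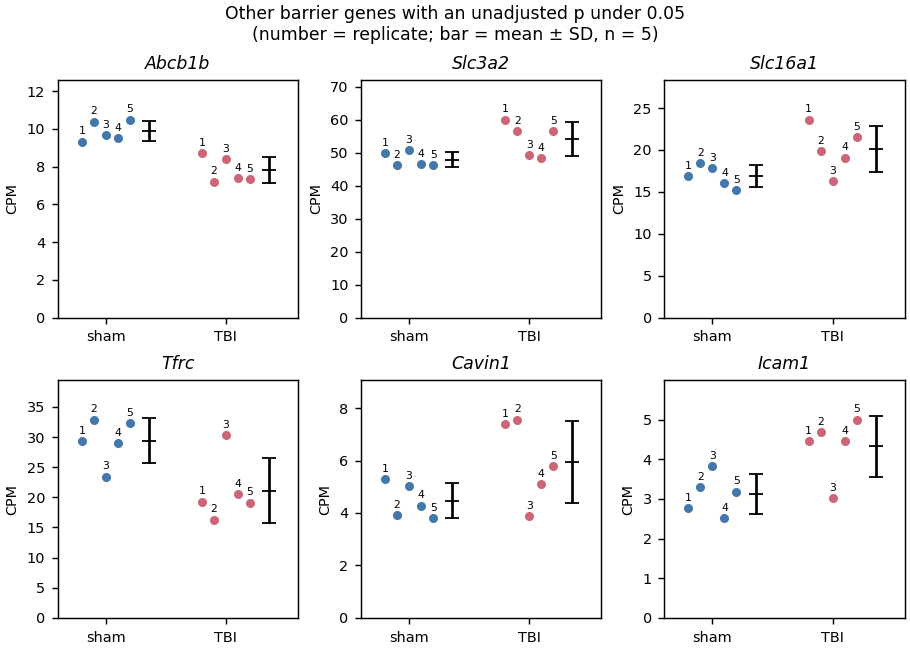
Level in CPM (vertical axes, starting at 0) of the 6 further barrier genes with an unadjusted p under 0.05, in sham and TBI rats. Points are rats labelled by replicate number and bars show the mean ± SD (n = 5). The groups are separate for Abcb1b, and for Tfrc, Cavin1, Icam1, Slc16a1 and Slc3a2 TBI rat 3 lies inside the sham range.

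The ligands and receptors around Flt1 gave 0 of 12 genes with an unadjusted p under 0.05. Vegfa, its ligand, had a log2 change of -0.23 (SE 0.177, unadjusted edgeR p of 0.202) for its most counted record. Vegfa has 5 records that share reads, with log2 changes from -0.45 to -0.23, and 3 of the 5 had an unadjusted p under 0.05. Nrp2, a coreceptor, had a log2 change of -0.15 (unadjusted edgeR p of 0.121), and Tie1, an endothelial receptor of the angiopoietin system, of 0.18 (unadjusted edgeR p of 0.118). In the Wnt pathway that maintains the barrier, 0 of 15 genes had an unadjusted p under 0.05, the smallest being that of Adgra2, the coactivator also called Gpr124 (log2 change 0.19, unadjusted edgeR p of 0.102), and of Tspan12, a partner of the Norrin receptor (0.14, unadjusted edgeR p of 0.127).

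Of 6 genes for leak and leukocyte adhesion, 2 had an unadjusted p under 0.05. Icam1, the adhesion molecule that holds leukocytes to the vessel wall and is also made by glia, was 2.78, 3.31, 3.83, 2.51 and 3.19 CPM in sham rats. In TBI rats it was 4.46, 4.68, 3.02, 4.46 and 5.00 CPM. Every TBI rat but replicate 3 lay above every sham rat, and the log2 change was 0.46 (SE 0.150, unadjusted edgeR p of 0.0069, adjusted p of 0.487). Cavin1, a coat protein of caveolae, had a log2 change of 0.40 (SE 0.167, unadjusted edgeR p of 0.0294), and missed the threshold without TBI rats 1 or 2 or sham rats 2, 4 or 5 (0.29 to 0.52 over the 10 fits). Plvap, the diaphragm protein of leaky vessels, had -0.16 (unadjusted edgeR p of 0.501). Of 5 other endothelial markers 0 had an unadjusted p under 0.05, and Cd34 and Erg had log2 changes of 0.39 (unadjusted edgeR p of 0.0849) and 0.25 (unadjusted edgeR p of 0.107).

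Cells around the vessels express some of these genes, so their markers were measured in the same libraries. Of all records, 7.89% had an unadjusted p under 0.05. The 6 markers of astrocyte endfeet summed to 432 to 480 CPM in sham and 464 to 603 CPM in TBI rats, with 5 of 6 higher in mean and 0 of 6 with an unadjusted p under 0.05 in their most counted record. Aqp4, the endfoot water channel, had a log2 change of 0.53 (unadjusted edgeR p of 0.0539) in that record, and 2 of its 4 records, which share reads, had an unadjusted p under 0.05. Gja1, the astrocyte connexin, had a log2 change of 0.17 (unadjusted edgeR p of 0.0677). Markers of pericytes summed to 58.7 to 75.7 CPM in sham and 66.5 to 84.2 CPM in TBI rats, and 2 of 10 (Ndufa4l2 and Vtn) had an unadjusted p under 0.05, both higher. The part of these cells in the values of Slc2a1, Slc16a1 and Cavin1 was not tested.

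Choroid plexus and meninges can enter a hippocampal dissection and express several members. The counts given here stand beside the same 7.89% of all records. Choroid plexus markers summed to 9.81 to 39.8 CPM in sham and 14.0 to 38.1 CPM in TBI rats, ranges that nearly coincide. Ttr alone was 3.31 to 30.8 CPM in sham and 6.78 to 31.0 CPM in TBI rats. Means were higher in TBI for 5 of 7 and lower for 2. Only Folr1, 1 of 7, had an unadjusted p under 0.05, and it was higher in TBI (log2 change 0.81, unadjusted edgeR p of 0.0261). The study also lists Folr1 as upregulated after TBI. Markers of meningeal fibroblasts summed to 9.50 to 23.6 CPM in sham and 17.3 to 27.6 CPM in TBI rats, and 4 of 7 (Col1a1, Col1a2, Igf2 and Slc6a13) had an unadjusted p under 0.05, these 4 higher. Of the 7, 6 had higher means and 1, Lum, a lower one (log2 change -0.95, unadjusted edgeR p of 0.199). Lum was at 9.92 CPM in sham rat 1. Blood markers summed to 183 to 338 CPM in sham and 264 to 415 CPM in TBI rats, and 2 of 4 (Hba-a1 and Alas2) were higher at that threshold. Of 6 leukocyte markers 1 could be tested, the T cell gene Cd3e, which lay between 0.0359 and 0.687 CPM in sham and between 0.0632 and 2.50 CPM in TBI rats. It had 1 to 94 counts per library, and its log2 change was 2.06 (SE 0.993, unadjusted edgeR p of 0.0676). The part of these cells in the levels of Pecam1, Icam1 and Tfrc was not tested.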

How the data were processed

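Per the submitters' processing notes and the study's methods, poly-A selected RNA was sequenced with 36 cycles, and reads were aligned with BWA to the rat assembly rn4. The methods name Ensembl transcripts for counting, whereas the rows of the table are RefSeq RNA records. The authors deposited raw counts per record, with no normalization or pooling of rats. The table held 32041 RNA records, and 2 rows that name no record (an empty entry and unmapped reads, the latter a median of 22.2% of reads) were left out. No strand was stated, and isoforms and paralogues share reads.

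Symbols came from a RefSeq table of the GRCr8 assembly and were found for 54.2% of records. Where a symbol had several records, the most counted was used. Records with a total count of at least 44 (the 30th percentile) were kept, 22431 in all. Sham and TBI were compared with edgeR 4.0.16 (robust quasi-likelihood test, TMM, two-sided) in R 4.3.3 with Benjamini-Hochberg adjustment over all records. Alternatives used DESeq2 1.42.0, limma 3.58.1, other scalings, no filter, summed records, a ribosomal RNA covariate and fits without single rats. Correlations used log2 CPM with a prior count of 2 and 100000 permutations. The edgeR test was tried on simulated counts of 22431 records. It recovered 111 of 200 records changed by 0.5 and 192 of 200 changed by 1 on the log2 scale, with 9 and 14 false calls. Only records with a mean of at least 1 CPM were changed. Each record was drawn on its own from its fitted mean and dispersion, so variation shared by many records of a rat was absent. Recovery under such variation was not tested, so these numbers do not give the power in the real libraries.

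The members, lists and tests were chosen with earlier results of these data known. All members are named. Of the other lists the text describes, genes with an unadjusted p under 0.05 or else the 2 with the smallest p are named. The 5 records most like the mean pattern of 5 of the members are named too. Any other gene was chosen after its values were seen. Promoters are the 250 bases before 1 listed RefSeq start a gene, which need not be its outermost. The rats are separate animals, numbered in accession order.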

Additional observations from a re-analysis of the deposited data

Results flagged for a closer look

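Among the 36 groups of 5 rats checked for a single distant value, 4 were flagged, where chance would flag 1.8. Ocln was 7.45 CPM in TBI rat 1, against 5.67 to 6.01 CPM in the other TBI rats. Pecam1 was 6.17 CPM in sham rat 3, against 8.02 to 8.73 CPM in the other sham rats. Mfsd2a was 14.8 CPM in TBI rat 3, against 9.79 to 10.8 CPM in the other TBI rats. Icam1 was 3.02 CPM in TBI rat 3, against 4.46 to 5.00 CPM in the other TBI rats.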

How the results depend on the processing

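The median log2 change over all records moved to 0.50 with total counts as library size and to 0.14 with total counts outside ribosomal RNA, so directions under these scalings are relative to that shift. With total counts outside ribosomal RNA, the log2 change became 0.12 for Tjp1, 0.020 for Abcb1a, 0.011 for Slco1a4 and 0.12 for Mfsd2a, and Abcb1b missed the unadjusted threshold (-0.19, edgeR p of 0.191). The members' median was then 0.14. An unadjusted p under 0.05 was reached by 2 members and 18 of the further barrier genes, beside 2902 of all 22431 records. With total counts the log2 change became 0.45 for Tjp1, 0.38 for Abcb1a, 0.29 for Abcg2 and 0.35 for Slco1a4. It was then 0.48 for Mfsd2a, 0.16 for Abcb1b and 0.035 for Tfrc. The members' median was 0.48, and 2 members and 21 further genes reached that threshold, beside 3788 of all 22431 records. Flt1 became -0.061 with the ribosomal RNA covariate and -0.055 with sham rats 4 and 5 left out. At that threshold 2 members passed with no filter (Slc2a1 and Cldn5), beside 2118 of 29022 records. With the covariate 0 members passed, beside 992 of 22431 records. Under the covariate Slc3a2, Slc16a1, Cavin1 and Icam1 missed the threshold (unadjusted edgeR p of 0.218, 0.199, 0.168 and 0.0894). With sham rats 4 and 5 left out Slc3a2, Slc16a1 and Cavin1 missed it (0.137, 0.121 and 0.123), as did Slc3a2 in the exact test of edgeR (0.0534) and Cavin1 in limma voom (0.0628). Under each of these alternatives 0 members passed an adjusted p of 0.05.

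Leaving out each rat in turn gave 1 to 2 members and 4 to 13 further genes at that threshold. There were 13 without TBI rat 3, 12 without sham rat 1, and 4 without TBI rat 2 or without sham rat 4. In those fits, in that order, 2001 of 22431, 1879 of 22445, 1356 of 22433 and 1413 of 22455 records reached it. The members' median lay between -0.05 and 0.05. The log2 change lay between -0.13 and 0.030 for Tjp1, -0.0077 and 0.12 for Pecam1, -0.16 and 0.030 for Mfsd2a and -0.057 and 0.096 for Flt1. Slc16a1, Slc3a2 and Cavin1 kept an unadjusted p under 0.05 in 7, 4 and 5 of 10 such fits, and Abcb1b, Tfrc and Icam1 in 10 of 10. Under every alternative tried 0 pairs of members passed the adjusted threshold. No paired analysis was possible because each label names a separate rat and the replicate numbers only follow the order of the samples. Where a value moved, the cause was not tested.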

Other observations

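Markers of cell types further from the endothelium were also measured, beside a share of 7.89% of all records with an unadjusted edgeR p under 0.05. Of 5 ependymal markers, 5 had higher means in TBI and 2 had an unadjusted edgeR p under 0.05. These were Foxj1, the master regulator of motile cilia (log2 change 0.97, SE 0.233, from a mean of 9.08 CPM in sham to 18.0 CPM in TBI), and Rsph1, a protein of the ciliary axoneme (0.50, SE 0.194). For both genes the groups overlapped, with 3 of 5 TBI rats above every sham rat. Of 6 microglia markers, 5 had higher means and 1, Aif1, had an unadjusted edgeR p under 0.05 (log2 change 0.34, SE 0.131), with summed levels of 109 to 177 CPM in sham and 131 to 194 CPM in TBI rats. Of 4 smooth muscle markers 1, Tagln, an actin-binding protein, did so (log2 change 0.43, SE 0.152). None of these passed an adjusted p of 0.05 by edgeR with Benjamini-Hochberg adjustment.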
